A study of Rattus norvegicus with 24 samples.

Results

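Endothelial cells line the vessels of the liver. A set of 10 genes that mark them, Pecam1, Kdr, Flt1, Tek, Tie1, Cdh5, Vwf, Eng, Nrp1 and Emcn, was followed through cadaveric rat liver, freshly isolated hepatocytes and liver constructs recellularized with rat liver cells. The members were the genes on this list that a probe of the array carried as its symbol. Of the 10 genes 7 had a probe, and they are covered by 8 probes because Tie1 had 2. Pecam1, Kdr and Eng had no such probe and are not analysed here. Of the 7 genes 6 were detected in enough samples to be tested, among 8825 genes tested in all, and Cdh5 was not.

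RNA from 19 samples was hybridized to RatRef-12 BeadChips, on which bead-bound probes capture labelled copies of rat transcripts. Cadaveric liver (n = 4) was taken from adult Sprague Dawley rats, and the isolated hepatocytes (n = 4) were collected straight after collagenase perfusion and density centrifugation of such livers. The constructs were decellularized rat livers whose caudate lobes were reseeded through the portal vein with cells isolated in this way and then perfused with medium, and 4 were taken 2 days after seeding, 4 after 15 days and 3 after 28 days. The rats were anesthetized with ketamine and xylazine and heparinized before livers were removed or cells isolated. The medium of the constructs held fetal bovine serum, insulin, dexamethasone and antibiotics. No allele, transgene or further drug treatment is named for any group, and no separate seeding of endothelial cells is described for the constructs. RNA that the scaffold itself may have held was not measured apart from that of the seeded cells, and neither the labels nor the methods tell whether constructs, hepatocyte samples or livers shared donors.

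Vessel lining cells share a core of receptors and adhesion proteins. VEGF binds the tyrosine kinases encoded by Flt1 and Kdr with neuropilin 1, the product of Nrp1, as a co-receptor. Angiopoietins bind Tek, which pairs with the orphan receptor Tie1. Cdh5 encodes the cadherin of endothelial junctions, Pecam1 an adhesion protein of the same contacts, Eng a co-receptor for TGF-β family ligands, Emcn a sialomucin of capillary and venous surfaces, and Vwf the clotting factor that endothelial cells store and release. In liver most of these cells line the sinusoids. They are fenestrated, take up waste from blood and are known to lose these features quickly once isolated, and Nrp1 is not theirs alone, since stellate cells and other mesenchymal cells carry it too.

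Sequence just before the transcription start was available for 6 of the 10 genes in RefSeq tables of the rat build GRCr8, and 4 of these windows are shown because they belong to the members with the lowest fitted differences from liver on day 28, Emcn and Tie1, and to those without a fall on that day, Nrp1 and Flt1. Each window is 250 bases long, runs 5′ to 3′ along the gene's strand and ends at the base before the annotated start. Capitals mark AGGAAG or CGGAAG on either strand (CTTCCT or CTTCCG when read on the other strand), 6-base forms of the site that ETS factors, a family that includes known regulators of endothelial genes, can bind.
Emcn, chr2:228564289-228564538, plus strand: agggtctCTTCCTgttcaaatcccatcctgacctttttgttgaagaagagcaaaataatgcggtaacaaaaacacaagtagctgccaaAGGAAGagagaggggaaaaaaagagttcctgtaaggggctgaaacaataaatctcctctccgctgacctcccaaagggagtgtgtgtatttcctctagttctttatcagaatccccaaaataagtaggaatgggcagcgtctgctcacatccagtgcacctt
Tie1, chr5:137304982-137305231, minus strand: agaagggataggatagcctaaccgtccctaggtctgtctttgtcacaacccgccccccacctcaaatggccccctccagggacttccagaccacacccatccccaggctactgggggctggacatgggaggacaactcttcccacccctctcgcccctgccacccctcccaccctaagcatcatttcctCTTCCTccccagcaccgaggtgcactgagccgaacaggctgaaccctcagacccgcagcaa
Nrp1, chr19:73256307-73256556, plus strand: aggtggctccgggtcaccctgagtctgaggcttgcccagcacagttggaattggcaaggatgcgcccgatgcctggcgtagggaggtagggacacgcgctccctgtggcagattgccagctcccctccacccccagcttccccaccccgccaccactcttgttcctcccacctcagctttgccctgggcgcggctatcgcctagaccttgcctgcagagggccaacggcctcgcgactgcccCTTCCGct
Flt1, chr12:12333180-12333429, plus strand: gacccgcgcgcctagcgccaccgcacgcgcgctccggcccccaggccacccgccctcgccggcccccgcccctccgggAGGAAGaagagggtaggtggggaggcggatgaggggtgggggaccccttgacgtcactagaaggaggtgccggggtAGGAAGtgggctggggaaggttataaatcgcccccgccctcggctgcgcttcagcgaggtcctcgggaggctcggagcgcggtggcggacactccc
The letters AGGAAG or CGGAAG occurred in 5 of the 6 windows, Kdr being the exception, and in 39.4% of the 33469 windows of this length in the table. The windows of Emcn and Flt1 each held 2 matches and those of Tie1 and Nrp1 held 1, so members that were low on day 28 and members that were not both had matches. A match is a run of letters and not a measured binding site.

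Isolated hepatocytes had the lowest median share of detected probes, 43.2%, and day 28 constructs the highest, 49.8%. Signals are given on the log2 scale as the authors normalized them, where the lowest value called detected on an array lay between 4.86 and 5.23, so a mean near 4.5 stands for background. The deposited detection p-value of a probe had to be under 0.05 to call it detected. Differences are fitted log2 differences ± SE from one limma model over all 5 groups, and adjusted p-values are by the Benjamini-Hochberg method over all 8825 genes, with a threshold of 0.05. Where a group was undetected on every array, the fold is a lower bound taken from that group's lowest detected signals. The comparisons with cadaveric liver share the same 4 livers, and those with hepatocytes the same 4 hepatocyte samples. The day 15 constructs fell into pairs, since replicates 1 and 2 correlated at r = 0.994 over all tested genes, replicates 3 and 4 also at 0.994, and replicates of different pairs at 0.970 to 0.982.

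In cadaveric liver Emcn, Tie1, Nrp1, Vwf and Tek were detected in every sample. All 5 were lower in isolated hepatocytes by more than the spread between samples, and in the constructs Emcn, Vwf and one Tie1 probe were at background, with Tek close to it. Nrp1 took another course, low on day 2 and among or above the livers on day 28. Flt1 was dim throughout, with detection on every array of a group on day 28 alone. Of the 6 tested members 5 were detected on every array of cadaveric liver, 3 on every array of hepatocytes, and 1, 2 and 3 on every array of day 2, 15 and 28 constructs. In bulk RNA, fewer endothelial cells and less RNA of these genes per cell cannot be told apart.

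**Figure D1:**
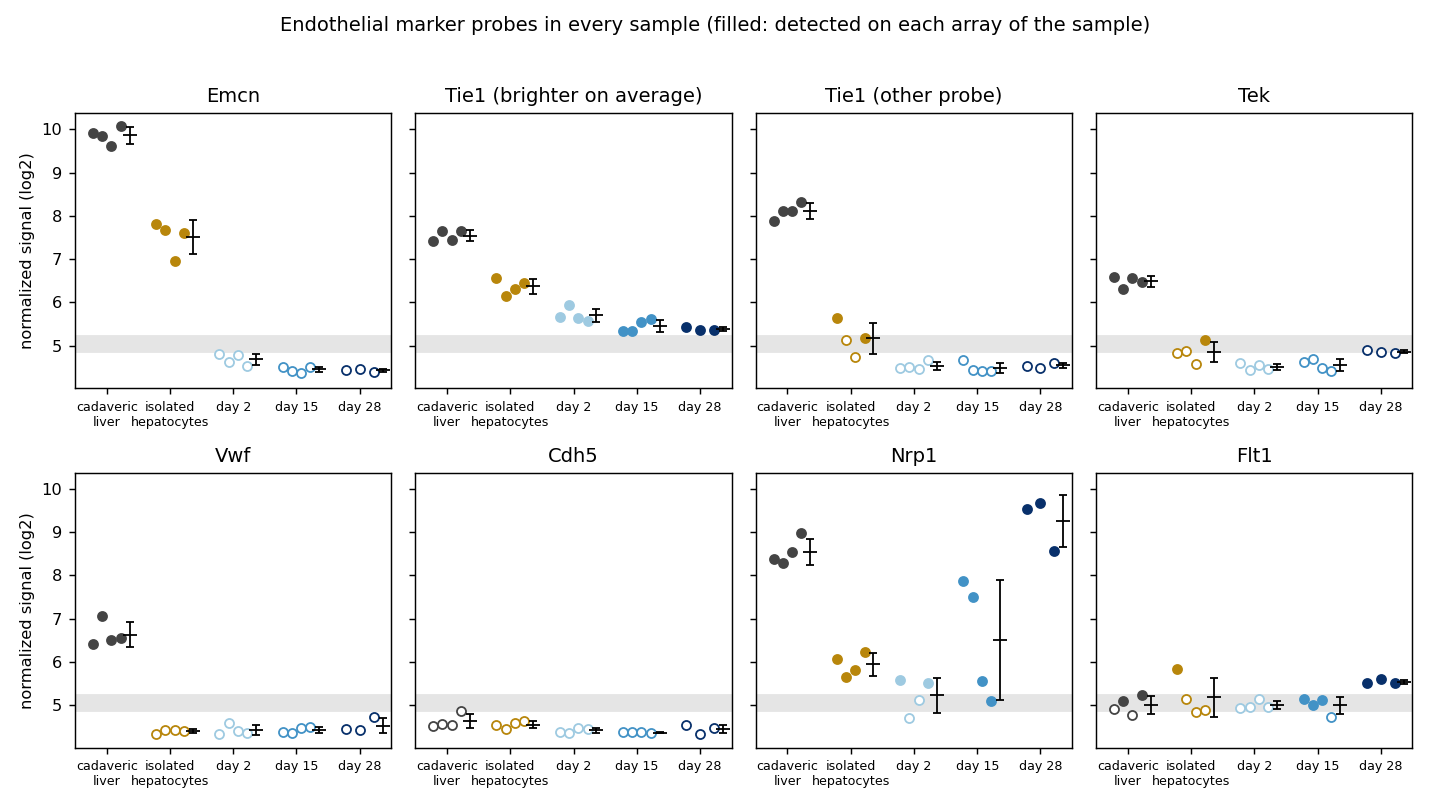
Normalized log2 signal (y axis) of the 8 probes of endothelial markers in every sample of the 5 groups (x axis). Each circle is a sample, filled where the probe was detected on every array of that sample, the bar beside it is the group mean ± SD, and the grey band spans the lowest signals called detected on the arrays. Emcn and the other Tie1 probe reached background by day 2, and Nrp1 on day 28 (8.58 to 9.68) overlapped cadaveric liver (8.29 to 8.97).

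Emcn, the sialomucin of capillary surfaces, had the largest fitted fall of the 6 tested members on all 3 days. Its log2 signals were 9.91, 9.86, 9.61 and 10.08 in the 4 cadaveric livers and 7.82, 7.68, 6.95 and 7.60 in the 4 hepatocyte samples. In the 11 constructs it was not detected on any of 16 arrays, with values of 4.37 to 4.81. The 3 kinds of material therefore did not overlap at any point. Emcn was 5.10-fold lower in isolated hepatocytes than in liver (difference -2.35 ± 0.15, adjusted p = 1.21e-09). It was at least 28.6-fold lower on day 2 (-5.18 ± 0.15, adjusted p = 5.45e-15), at least 30.9-fold lower on day 15 and at least 31.7-fold lower on day 28. The day 2 constructs were also at least 5.60-fold below the hepatocytes (-2.83 ± 0.15, adjusted p = 1.80e-11), the kind of preparation with which they had been seeded. Among the days themselves the means of 4.69, 4.45 and 4.43 were all at background and carry no order.

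Tie1 was measured by 2 probes that gave the same direction but not the same size. The probe with the higher mean, which stands for the gene, read 7.43, 7.64, 7.44 and 7.66 in liver and 6.56, 6.15, 6.30 and 6.46 in hepatocytes. It stayed detected on all 16 construct arrays, at 5.70 ± 0.16 on day 2 (SD, n = 4), 5.45 ± 0.14 on day 15 (n = 4) and 5.38 ± 0.04 on day 28 (n = 3). No hepatocyte sample reached the range of the livers, and no construct reached that of the hepatocytes. By this probe Tie1 was 2.26-fold lower in hepatocytes than in liver (-1.17 ± 0.11, adjusted p = 1.46e-07) and 4.46-fold lower on day 28 (-2.16 ± 0.12, adjusted p = 3.75e-11). It was also lower on day 2 than in hepatocytes (-0.67 ± 0.11, adjusted p = 3.12e-05). The other probe fell from 8.11 ± 0.19 in liver to 5.17 ± 0.37 in hepatocytes, where it was detected on 2 of 4 arrays, and was detected on no construct array, which put day 28 at least 9.40-fold below liver. Which of the probes is closer to the true size was not tested. Between days the first probe was lower on day 28 than on day 2 (-0.32 ± 0.12, adjusted p = 0.0295). That small step failed the test without day 2 replicate 2 (adjusted p = 0.0984) and without day 28 replicate 1, 2 or 3 (0.0514, 0.0786 and 0.0721). Without day 15 replicate 4 the step from day 2 to day 15 passed instead (-0.30, adjusted p = 0.0443, against 0.0703 with all samples).

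Tek, the angiopoietin receptor, had log2 signals of 6.60, 6.31, 6.56 and 6.48 in liver. In hepatocytes they were 4.83, 4.88, 4.58 and 5.12, and only the highest of these was called detected. The groups did not overlap, and the fitted difference of hepatocytes from liver was -1.63 ± 0.11 (adjusted p = 2.17e-09), with no fold given because the hepatocyte mean of 4.85 lay below the lowest signals detected there (5.11 to 5.23). Tek entered the test through the livers, since only 1 sample of any other group counted as detected, so it had to differ from liver. No array of day 2 or day 15 detected it, which placed it at least 2.75-fold below liver on day 2 (-1.98 ± 0.11, adjusted p = 2.65e-11) and at least 2.97-fold below on day 15. On day 28 the constructs read 4.91, 4.84 and 4.84, with detection on 2 of 5 arrays. The day 28 mean of 4.86 ± 0.04 was above that of day 2, 4.51 ± 0.08, by 0.35 ± 0.11 (adjusted p = 0.0150), but both sat at or near background, and without day 28 replicate 1 the test was not passed (adjusted p = 0.0527). Against liver the day 28 difference was -1.62 ± 0.11 (adjusted p = 1.15e-09), again with no fold, since the day 28 mean was at the lowest signals detected there (4.86 to 4.90). Compared with hepatocytes, day 28 differed by 0.01 ± 0.11 (adjusted p = 0.949).

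Vwf, the stored clotting factor, was a marker of intact liver only at the sensitivity of this probe. Its signals were 6.42, 7.05, 6.50 and 6.55 in liver, and 4.33 to 4.72 in the 15 other samples, on no array of which it was detected. Vwf was at least 2.75-fold lower in hepatocytes (-2.23 ± 0.12, adjusted p = 1.61e-10), at least 3.04-fold on day 2, at least 3.29-fold on day 15 and at least 3.37-fold on day 28. It entered the test through the livers alone, where it is high, so its calls against liver describe the filter as much as the gene. Platelets and their precursors also make von Willebrand factor. Of the platelet markers 2 were tested, Pf4 and Gp1bb, and both were detected on all 4 arrays of liver (7.95 and 5.40) and on none of hepatocytes (4.60 and 4.39). On day 28, where Vwf was at background, Gp1bb was at 5.58 on 5 of 5 arrays, 0.18 from liver without passing the test, and Pf4 at 5.69 on 4 of 5, and both were higher than on day 2 (0.72 and 1.08). The part of blood cells in the Vwf signal was not tested.

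Cdh5, the junctional cadherin, was not detected on any of the 24 arrays. Its values ran from 4.51 to 4.87 in liver and from 4.34 to 4.62 in the other groups, all within the range of background. Since the same livers gave clear Emcn, Tie1 and Tek signals, no statement on Cdh5 can be drawn from this probe.

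Nrp1, the VEGF and semaphorin co-receptor, was low in hepatocytes and early constructs. On day 28 it lay above every liver in replicates 1 and 2 and among the livers in replicate 3. Its log2 signals were 8.38, 8.29, 8.54 and 8.97 in liver, 6.07, 5.66, 5.81 and 6.24 in hepatocytes, and 5.59, 4.71, 5.11 and 5.51 in day 2 constructs. On day 15 the 4 constructs read 7.87, 7.50, 5.57 and 5.09, and on day 28 the 3 constructs read 9.53, 9.68 and 8.58. Liver and day 28 overlapped, hepatocytes and day 2 lay far below both, and day 15 was split between replicates 1 and 2, above every hepatocyte sample, and replicates 3 and 4, below every one. Nrp1 was 6.06-fold lower in hepatocytes than in liver (-2.60 ± 0.46, adjusted p = 3.84e-04) and 9.93-fold lower on day 2 (-3.31 ± 0.46, adjusted p = 5.47e-06). By day 28 it was 16.3-fold above day 2 (4.03 ± 0.50, adjusted p = 3.04e-06) and 9.96-fold above the hepatocytes (3.32 ± 0.50, adjusted p = 1.36e-05). Against liver the day 28 difference was 0.72 ± 0.50 (adjusted p = 0.233). With median scaling in place of quantile normalization it was 1.20 and passed the test (adjusted p = 0.0499). The difference of day 2 from hepatocytes was -0.71 ± 0.46 (adjusted p = 0.201), and among the alternatives it passed the test only where just those groups were fitted (adjusted p = 0.0119).

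The course of Nrp1 between those ends depended on which day 15 constructs were read. With all 4, day 15 was 2.42-fold above day 2 (1.27 ± 0.46, adjusted p = 0.0322) and day 28 was 6.75-fold above day 15 (2.75 ± 0.50, adjusted p = 0.00197), although the samples of day 2 and day 15 overlapped. The first step failed the test without day 2 replicate 2 (1.10, adjusted p = 0.0907), day 2 replicate 3 (1.24, 0.0665), day 15 replicate 1 (0.82, 0.138) or day 15 replicate 2 (0.94, 0.120). With day 15 replicates 3 and 4 alone it was 0.10 (adjusted p = 0.850). Neither step passed where only the groups compared were fitted (adjusted p = 0.108 for the first and 0.08 for the second). The summed linear signal of the 15 tested stellate cell and myofibroblast markers split in the same way, at 28451 and 38051 in day 15 replicates 1 and 2 and 8139 and 6695 in replicates 3 and 4. That sum was 8933 to 18841 in liver, 8022 to 8944 in hepatocytes, 1007 to 1309 on day 2 and 22672 to 39605 on day 28, and its 15 genes included 7 detected on no array of hepatocytes, 8 on none of day 2 and 1 on none of day 28. Bright genes carry such a sum, and by gene 9 of the 15 were lower in hepatocytes than in liver and none higher (median difference -1.64), while on day 28 there were 8 higher and 3 lower (1.39). On day 15 there were 5 higher, 6 lower and 4 not passing the test (0.11). Of all genes 11.3% were lower in hepatocytes, 26.5% on day 15 and 27.6% on day 28, where 29.5% were higher. On day 15, 2775 of 8825 genes were higher than in liver. Dcn, a gene of the list, was at 4.33 to 4.71 in the day 15 constructs, detected on none of 5 arrays. The split of the sum was therefore not one of every gene. Among the 15 the collagen gene Col1a2 had means of 11.64 in liver, 6.57 on day 2 and 14.14 on day 28. Col3a1, another collagen gene, was at 9.01 in liver, 5.75 in hepatocytes and 10.67 on day 28. The part of these cells in the Nrp1 signal was not tested.

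**Figure D2:**
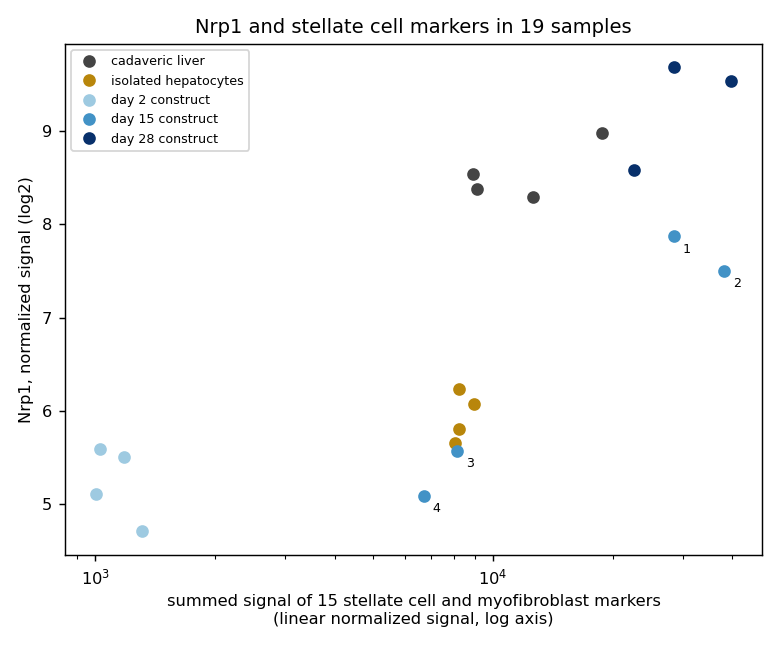
Log2 signal of Nrp1 (y axis) against the summed linear signal of 15 stellate cell and myofibroblast markers (x axis, log scale) in the 19 samples, coloured by group, with day 15 constructs numbered by replicate. Day 15 replicates 1 and 2 lie near the day 28 constructs on the x axis. Replicate 3 lies among the isolated hepatocytes on that axis and replicate 4 to the left of them. On the y axis replicates 3 and 4 lie below every hepatocyte sample, in the range of the day 2 constructs. By gene, 9 of the 15 markers were lower in hepatocytes than in liver.

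Flt1, the VEGF receptor that also acts as a decoy for its ligand, was dim everywhere. It read 4.90, 5.09, 4.78 and 5.23 in liver and 5.84, 5.15, 4.84 and 4.90 in hepatocytes, detected in 2 of 4 livers and 1 of 4 hepatocyte samples. In the constructs it was detected on 2 of 6 arrays on day 2, on 4 of 5 on day 15 and on 5 of 5 on day 28. The day 28 constructs, at 5.51, 5.60 and 5.51, were above every liver, every day 2 and every day 15 construct. Flt1 was higher on day 28 than in liver by 0.54 ± 0.18 (adjusted p = 0.0183) and than on day 2 by 0.53 ± 0.18 (adjusted p = 0.0216). The first of these was lost without cadaveric liver replicate 3 (0.46, adjusted p = 0.0548) or day 28 replicate 2 (0.51, adjusted p = 0.0567), and the second without day 28 replicate 2 (0.50, adjusted p = 0.0647). With the first array of each sample alone neither passed (0.44, adjusted p = 0.07, and 0.46, adjusted p = 0.0648). Against hepatocytes the day 28 difference was 0.36 ± 0.18 (adjusted p = 0.101), and it passed without the bright hepatocyte replicate 1 (0.57, adjusted p = 0.00129). Without that sample the step from day 15 to day 28 passed too (adjusted p = 0.0122, against 0.0704 with all samples). Between hepatocytes and liver Flt1 differed by 0.18 ± 0.17 and did not pass the test, where the other 5 tested members were lower in hepatocytes.

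Counted by comparison, 5 of the 6 tested members were lower in hepatocytes than in liver, all but Flt1, where 11.3% of all genes tested were lower. Beside liver, 5 were lower on day 2 (26.1% of all genes), 5 on day 15 (26.5%) and 4 on day 28 (27.6%), with Flt1 the 1 higher on day 28 (29.5%). The median difference of the 6 from liver was -1.93 in hepatocytes, -2.09 on day 2, -2.06 on day 15 and -1.86 on day 28, and that of all genes was between -0.02 and 0.07. Relative to hepatocytes 3 members were lower on day 2, namely Emcn, Tie1 and Tek (25.7%), and Emcn and Tie1 were lower and Nrp1 higher on day 28 (33.6% and 30.0%). The fall of Tek was 0.35 and lay near background. Between days, Nrp1 was the 1 member higher on day 15 than on day 2 (20.2%) and on day 28 than on day 15 (5.46%), while Nrp1, Flt1 and Tek were higher and Tie1 lower on day 28 than on day 2 (20.6% and 30.9%). Over the 3 days together the F test passed for Nrp1 (adjusted p = 9.11e-06), Tek (0.0298) and Flt1 (0.0299), 3 of 6 where 53.7% of all genes passed. Nrp1 passed with any sample left out (adjusted p at most 1.18e-04), whereas neither Tek nor Flt1 did without day 28 replicate 1 (0.109 and 0.0760), 2 (0.0727 and 0.103) or 3 (0.0679 and 0.0718), nor Tek without day 2 replicate 2 (0.0527) or 4 (0.0513). Tek and Vwf had passed the filter only through the livers, as had 3.35% of all genes tested, so the counts and medians against liver describe the members and are not evidence about the list.

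**Figure D3:**
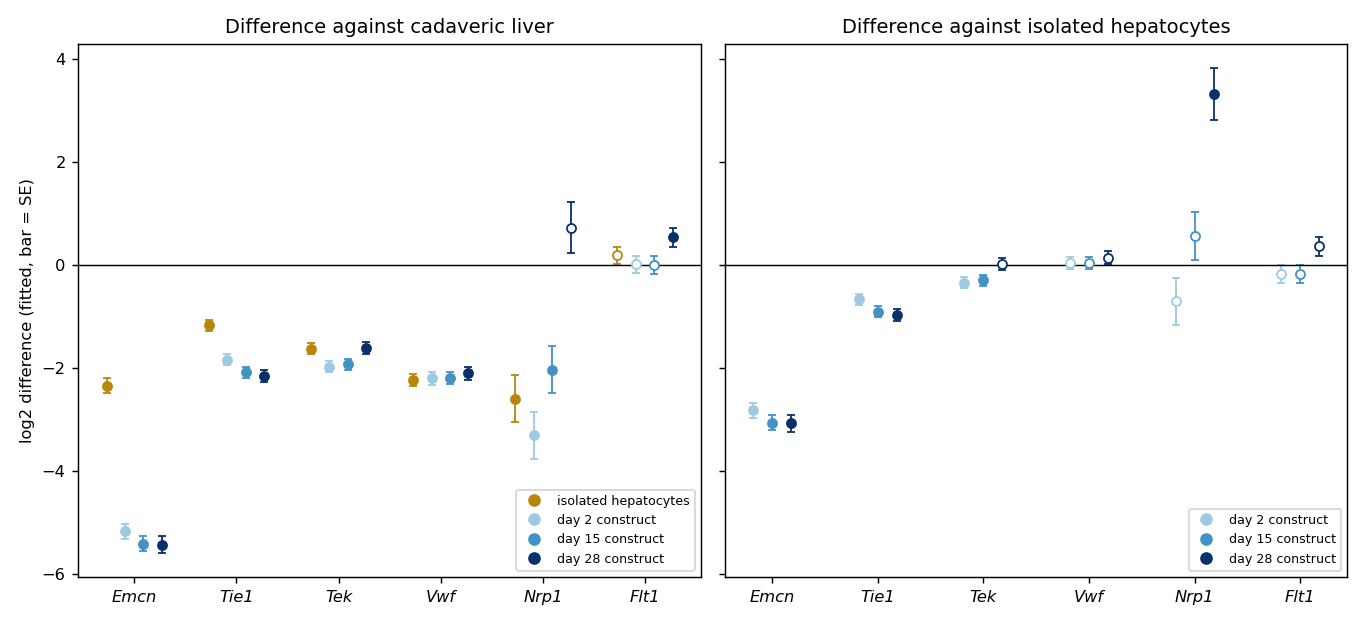
Fitted log2 differences (y axis, bars are SE) of the 6 tested members (x axis) from cadaveric liver, left, and from isolated hepatocytes, right, coloured by the group compared. Filled circles had an adjusted p under 0.05. Emcn lies at -5.18 to -5.43 from liver in the constructs, and Nrp1 moves from -3.31 on day 2 to 0.72 on day 28.

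The members differed in how alike their courses were. As a description over the 19 samples, which share groups, Emcn and Tie1 correlated at r = 0.98, Tek and Vwf at 0.95 and Tek and Tie1 at 0.89. Nrp1 correlated with Tek at 0.60, with Vwf at 0.49, with Flt1 at 0.40, with Emcn at 0.29 and with Tie1 at 0.26, and Flt1 with the other 4 at -0.20 to -0.12. The tested genes outside the set with the most similar course were Oit3 (r = 0.998) and Cfp (0.993) for Emcn, and Rasip1 (0.991) and Adgrl4 (0.979) for Tie1. Oit3 is a known gene of sinusoidal endothelium and Rasip1 and Adgrl4 are known endothelial genes, whereas Cfp encodes the complement protein properdin, made by leukocytes. For Tek they were Cybb (0.985), a phagocyte oxidase subunit, and Clec4a3 (0.979), and for Vwf the β-globin gene Hbb-b1 (0.987) and the calcium pump gene Atp2a3 (0.986). Hbb-b1 had a mean of 12.20 in liver and 4.82 in hepatocytes, and the part of blood in these courses was not tested. Tek and Vwf had passed the filter only through the livers and lay at or near background elsewhere. Cybb and Atp2a3 were detected on no array outside liver. The r values of Tek and Vwf with these genes, and with one another, therefore mostly reflected liver against background. Nrp1 was nearest to Cnrip1 (0.975) and to Ogn (0.974), which encodes a matrix proteoglycan and went from 9.08 in liver to 4.53 on day 2 and 9.97 on day 28. Flt1 had no close neighbour, its nearest being Akr1c2 (0.81) and Steap2 (0.76).

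Markers of sinusoidal endothelium, the type that lines the capillaries of the liver, were mostly low in every construct group. Of 13 tested genes 11 were lower in hepatocytes than in liver (median difference -2.23), 11 lower and 1 higher on day 2 (-3.94), and 8 lower and 1 higher on day 28 (-3.11). Of all genes tested 11.3%, 26.1% and 27.6% were lower in these comparisons. Higher were 3043 of 8825 genes on day 2 and 29.5% on day 28. Lyve1, the hyaluronan receptor, had means of 10.62 in liver, 8.77 in hepatocytes and 4.95, 4.69 and 4.72 on days 2, 15 and 28. Oit3 had 10.26, 8.03 and then 4.67 to 4.81. The Fc receptor gene Fcgr2b fell from 8.79 in liver to 7.03 in hepatocytes and 4.49 on day 2, and Plvap, which encodes a protein of vesicle diaphragms, from 9.27 to 6.25 and 4.56. Between day 2 and day 28, 5 of the 13 rose (20.6% of all genes) and 1, Cd36, which hepatocytes also express, fell (30.9%). The 5, named here after their values were seen, were Ehd3 (3.82), Gata4 (2.61), Rspo3 (2.59), Bmp2 (2.04) and Dnase1l3 (1.06 on the log2 scale). Gata4 and Rspo3 are also known in stellate cells.

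Genes on the list of endothelial transcription factors went both ways, and some of them, such as Hhex and Prox1, are also known in hepatocytes. Among 15 tested endothelial transcription factors 6 were lower and 3 higher in hepatocytes than in liver, 12 lower and 1 higher on day 2, and 8 lower and 2 higher on day 28. Of all genes tested 11.3%, 26.1% and 27.6% were lower in these comparisons. Higher were 1000 of 8825 genes in hepatocytes, 3043 on day 2 and 29.5% on day 28. Sox17, a factor of arterial endothelium, fell from 6.85 in liver to 5.64 in hepatocytes and 4.72 on day 28, and the ETS factor gene Fli1 from 7.59 to 4.86 and 5.17. Klf2, which responds to flow, was at 7.72 in liver, 4.81 on day 2 and 5.65 on day 28 (0.84 above day 2). The ETS factor gene Ets1, which many cell types express, returned from 5.32 in hepatocytes to 7.69 on day 28, where it lay 0.35 below liver without passing the test.

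On the list of ligands of the members 15 genes were tested. It includes Apln, which is not a ligand of any member and had means of 5.01 in liver, 4.48 on day 2 and 6.26 on day 28. Of the 15, 9 exceeded liver on day 28 (29.5% of all genes) and 2 were below it (27.6%), with a median of 1.14. On that day 11 exceeded day 2 (20.6% of all genes) with 1, Vegfb, below it (30.9%), 3 not passing the test and a median of 1.66. Angpt2 and Pgf had passed the filter only through day 28. On day 15 the summed signal of the 15 genes split as the summed stellate cell markers did, at 2561 and 3626 in replicates 1 and 2 and 1562 and 1470 in replicates 3 and 4. The part of stellate cells in the ligand signals was not tested. Vegfd, a growth factor of lymphatic vessels, had means of 5.10 in liver, 4.89 on day 2 and 7.73 on day 28. Sema3a, which encodes a ligand of neuropilin 1, was at 4.67, 4.54 and 6.53, detected on no array of liver or day 2 and on 5 of 5 arrays of day 28. Tgfb3 had 5.42, 4.98 and 8.03. Gdf2, which encodes the ligand BMP9 and is known from stellate cells of the liver, was among the 2 lower than liver, at 6.37 in liver and 5.06 on day 28, and the other was Sema3f (6.96 and 6.59). Among 11 tested partner receptors and signalling genes, 2 were lower in hepatocytes than in liver (11.3% of all genes), Plxnd1 (9.09 to 6.51), a semaphorin receptor, and Acvrl1 (1.89 below liver), the endothelial receptor for BMP9, and on day 28 they stood at 5.03 and 5.38. On day 28, 3 of the 11 were lower than in liver and 3 higher, where 27.6% of all genes were lower and 29.5% higher. The higher ones, named after their values were seen, were Bmpr2 (7.90 to 9.47), the phosphatase gene Ptpn11 (5.85 to 6.53) and the catenin gene Ctnnd1 (10.41 to 10.95).

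Junction, vessel tone and arterial genes held both patterns. For the counts below, 27.6% of all genes tested were lower and 29.5% higher on day 28 than in liver, and 20.6% were higher than on day 2. Of 13 tested junction and adhesion genes 7 were lower on day 28 than in liver and 3 higher. Cd93 fell from 9.88 in liver to 7.47 in hepatocytes and 5.28 on day 28 and Esam from 7.79 to 5.35 and 5.38, whereas Icam2, at 8.59, 5.76 and 4.47 in liver, hepatocytes and day 2, was at 6.75 on day 28, and Jam3 rose from 7.59 in liver to 10.15. The other genes above liver on day 28, named after their values were seen, were Tmem204 (9.37 to 11.30) and Icam1 (8.83 to 9.39). Of 12 vessel tone and clotting genes 8 were higher and 2 lower on day 28 than in liver. Nos3, the endothelial nitric oxide synthase gene, was one of the 2, at 7.38 in liver and undetected on every construct array, and Slco2a1 was the other (7.74 to 5.68). Nos3 had passed the filter only through the livers, so it had to differ from liver. Plat, which encodes tissue plasminogen activator, rose from 6.91 to 9.99, Procr, the protein C receptor gene, from 7.91 to 9.02 and Tfpi from 8.16 to 8.79. Of 11 arterial and Notch genes 9 were higher on day 28 than on day 2, and against liver 4 were higher and 3 lower (median 0.16). Their summed signal on day 15 was 5846 and 6602 in replicates 1 and 2 and 1533 and 1317 in replicates 3 and 4, the split of the summed stellate cell markers. Cxcl12, a chemokine gene, had means of 12.53 in liver, 5.24 on day 2 and 12.69 on day 28, Gja5 was 3.38 above liver on day 28 and Unc5b 3.52, and Hes1 stood 2.88 above liver in hepatocytes. The lists overlap in meaning with other cell types, since Cxcl12, Plat and Procr are not made by endothelium alone.

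**Figure D4:**
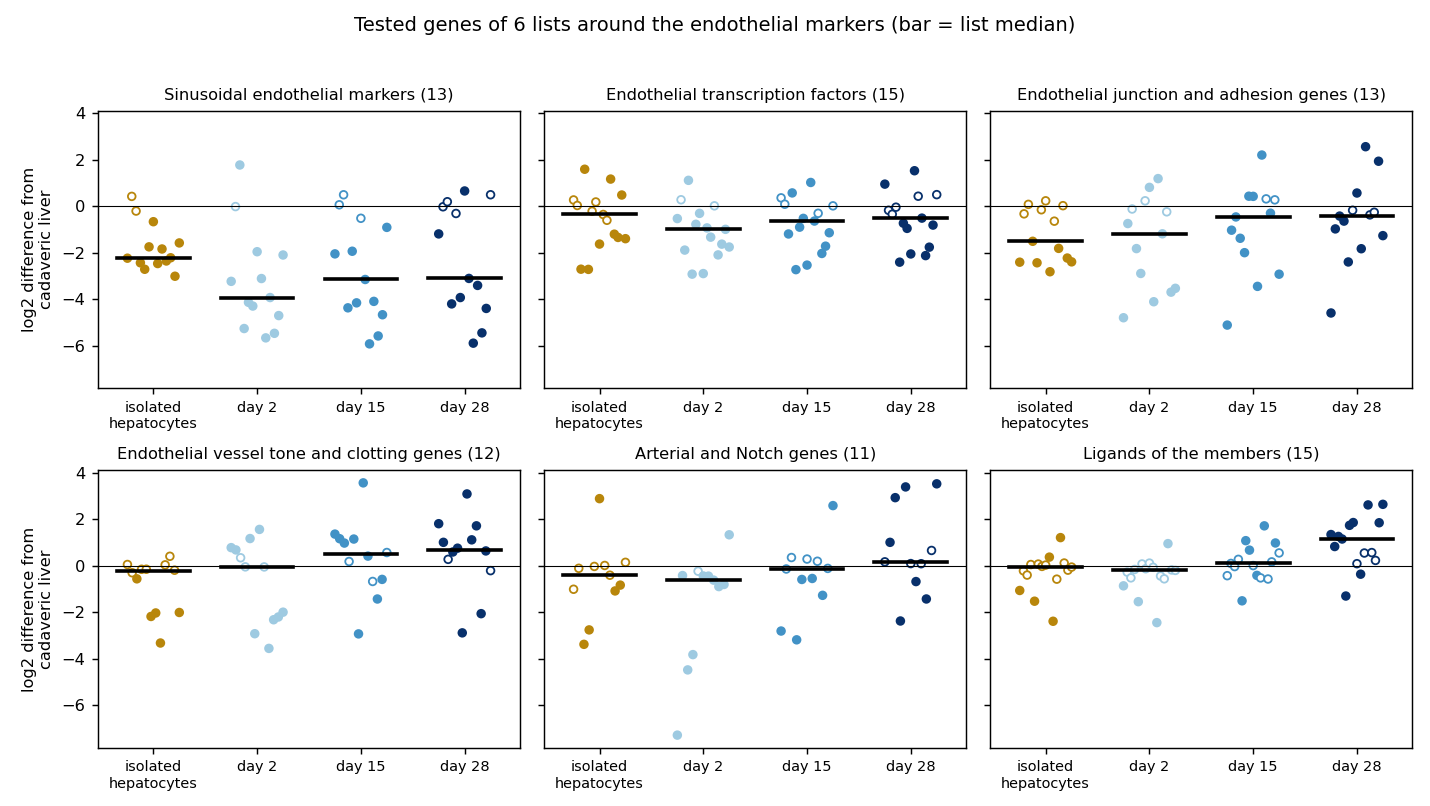
Fitted log2 differences from cadaveric liver (y axis) for the tested genes of 6 lists around the endothelial markers, in hepatocytes and in constructs of day 2, 15 and 28 (x axis). Each circle is a gene, filled at an adjusted p under 0.05, and the bar is the list median, which for sinusoidal markers stays at -3.11 on day 28 and for ligands reaches 1.14.

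Markers of the other cells of the liver give the setting of these changes. All 9 tested Kupffer cell and macrophage genes were lower than liver in hepatocytes and on every day (median -2.79 in hepatocytes and -3.97 on day 28). Of all genes 11.3% were lower in hepatocytes and 26.1% to 27.6% on the days. The summed signal of the 9 was 8042 to 15370 in liver, 1367 to 2112 in hepatocytes and 249 to 512 on day 2. Aif1 fell from 11.38 in liver to 8.72 and 4.79 and C1qa from 10.87 to 7.81 and 5.19 in hepatocytes and on day 2. Of 6 leukocyte markers tested, 4 were detected on no hepatocyte array, among them Klrd1 (5.78 in liver and 4.39 in hepatocytes) and Ptprc (5.73 and 4.50). These genes and Nkg7 had passed the filter only through the livers, as had 1 gene each of the sinusoidal (Gpr182), transcription factor (Sox18), vessel tone (Nos3), stellate cell (Gfap), macrophage (Adgre1) and mesothelial (Msln) lists, all of which had to differ from liver for that reason. Of 15 hepatocyte markers 2 were higher in isolated hepatocytes than in liver, as were 1000 of all 8825 genes, and the other 13 did not pass the test. Alb was at 14.79 in liver and 14.73 in hepatocytes. In the constructs 9, 7 and 8 of the 15 were lower than in liver on days 2, 15 and 28 and 1 was higher on each day (medians -0.72, -0.31 and -0.54). Of all genes 26.1%, 26.5% and 27.6% were lower on these days, and 3043, 2775 and 2601 of 8825 were higher. The summed signal of the 15 was 145150 to 162683 on day 2 against 245888 to 262597 in liver. Markers of other cells were still detected in the isolated hepatocytes. Emcn, Lyve1 and 6 of the 9 macrophage genes were detected on all 4 of their arrays, while Dcn (8.78 to 4.69), a fibroblast gene, and Krt19 (7.98 to 4.70), a bile duct keratin gene, were detected on none of them. Their lists were mixed there. Of 15 stellate cell markers 4 were detected on every hepatocyte array and 7 on none, and of 5 bile duct markers 3 on every array and 2 on none. Reln, on the stellate cell list, was at 7.69 in hepatocytes, detected on 4 of 4 arrays. On day 28 Krt19 was back at 8.51 and Dcn at 8.02, the latter still below liver. Msln, a mesothelial gene, was at 7.35 in liver and at background in every other group, and Wt1 went from 4.45 in liver to 5.95 on day 28. Wt1 had passed the filter only through day 28, where it is high, so its rise describes the filter as much as the gene. The part of any of these cells in the endothelial marker signals was not tested.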

How the data were processed

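RNA of 19 samples in 5 groups was measured on 24 arrays. The authors deposited the bead intensity of 23365 probes, not normalized, and a detection p-value for each, and log2 values after background correction and quantile normalization in limma (version not given in the sources used here). These deposited log2 values of 22523 probes, 842 control probes being absent from them, were analysed. The intensity columns were paired with the arrays by recomputing neqc (offset 16), each lying within 0.0063 of its array. Their replicate numbers differ from the sample records on 14 arrays, always within groups, and the records were followed. Both arrays of 5 constructs were averaged.

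A sample counted as detected when the p-value was under 0.05 on every array of it, and a probe was kept when at least 3 samples were detected (12516 probes). Of the probes 13793 carried 1 gene symbol and 8730 none. For genes with several probes the one with the highest mean was taken. Groups were compared in one group means model with limma 3.58.1 (R 4.3.3), which was tested on simulated data first. Day 15 was compared with hepatocytes in a contrast added to the 9 planned ones. Samples are named by group and replicate, and where constructs share donors p-values measure only the spread between these samples. The members, the 14 other lists and the tests were chosen with earlier results of these data known. Named genes outside the members were up to 4 of a list with the lowest F test p-values over the 5 groups, or defining markers. The 2 genes with the highest correlation to a member were named too. Others, such as Slco2a1, Sema3f, Vegfb, Apln and Cd36, were named outside this rule. Of the hepatocyte list only Alb was named, a defining marker (F test adjusted p = 0.76). Values of the 4 lowest there, Pck1, Cyp2e1, Cyp3a2 and G6pc1, are not given. Upstream sequences came from RefSeq. 33 alternatives were run, 19 of which left out a sample.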

Additional observations from a re-analysis of the deposited data

Results flagged for a closer look

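Within groups of 4 samples, 3 of 32 sets of member values had a single sample set apart from the other 3 by most of the range of that group, where chance gives about 1 in 20. The Tie1 probe that does not stand for the gene read 4.66 in day 15 replicate 1 and 4.41 to 4.44 in the other 3 constructs of that day. Cdh5 read 4.35 in day 15 replicate 4 and 4.37 in the others. Flt1 read 5.15 in day 2 replicate 3 and 4.94 to 4.97 in the others. The first 2 were undetected in the whole group and Flt1 was detected on 2 of 6 arrays, so the gaps lie at or near background.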

How the results depend on the processing

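Over 33 alternatives, 921 of 942 repeats of the 32 called member differences passed the test again in the same direction, 21 did not and none changed sign, the losses falling on 6 differences. The numbers of members lower than liver in each group (5, 5, 5 and 4) and lower than hepatocytes on day 2 and day 28 (3 and 2) kept their values with any sample left out. Leaving out 1 sample at a time gave 0 to 1 members higher on day 28 than in liver, 1 to 2 higher on day 28 than in hepatocytes or on day 15, 0 to 1 higher and 0 to 1 lower on day 15 than on day 2, 2 to 3 higher and 0 to 1 lower on day 28 than on day 2, and 1 to 4 in the F test over days. Tie1 was not called lower on day 28 than on day 2, so that the count there was 0 and not 1, without background correction (adjusted p = 0.100), with median scaling in place of quantile normalization (0.309) and with the replicate number as a block (0.0642). Equal numbers were not treated as pairs, since only 5 of 36 same-numbered pairs deviated together at r over 0.1 (-0.28 to 0.27), and the replicate block changed no other call. Median scaling gave 2 members in place of 1 higher on day 28 than in liver (Nrp1 added), than in hepatocytes and on day 15 (Flt1 added). Under it the median difference of all genes from liver was 0.25 on day 2, 0.28 on day 15 and 0.29 on day 28, against 0.07, 0.03 and -0.02 with quantile normalization. The lower share of all calls changed from 50.0% to 74.2% for hepatocytes against liver, from 43.1% to 28.8% on day 2, from 45.8% to 25.5% on day 15 and from 48.4% to 25.9% on day 28 against liver, from 44.1% to 24.3% on day 2 and from 52.8% to 26.5% on day 28 against hepatocytes, and from 47.55% to 36.98% for day 28 against day 15. The first array alone gave 0 members higher on day 28 than in liver and 1 in the F test. Without the detection filter the rise of Nrp1 from day 2 to day 15 was not called (count 0, adjusted p = 0.0541). Fitting only the groups compared gave 0 higher for day 15 against day 2 and 0 for day 28 against day 15, and 5 members in the F test, and the methods' ordinary F test gave 5 both at an unadjusted p under 0.05 and after Benjamini-Hochberg adjustment. Chosen after seeing the data, day 15 replicates 3 and 4 alone gave 0 members higher on day 15 than on day 2 and 2 higher on day 28 than on day 15 (Tek added), and replicates 1 and 2 alone gave 1 lower on day 15 than on day 2 (Tie1). Signs changed 30 times among 12 differences that passed the test under neither setting, by values of at most 0.0910. Under median scaling these were Flt1 on day 15 against liver (0.0397) and day 2 (0.0297), Vwf on day 2 (-0.0770) and day 28 (-0.0639) against hepatocytes and on day 15 against day 2 (-0.0280), and Tek on day 28 against hepatocytes (-0.00592). With the first array alone it was Flt1 on day 2 against liver (-0.0182), with day 15 replicates 1 and 2 alone Flt1 against liver (0.0819) and day 2 (0.0771), Vwf against day 2 (-0.0543) and Tie1 on day 28 against day 15 (0.0479), and with replicates 3 and 4 alone Tek against day 2 (-0.0605). Single samples left out moved Flt1 against liver between -0.0768 and 0.0910 on day 15, -0.0704 and 0.0821 on day 2 and -0.0369 and 0.295 in hepatocytes, Flt1 on day 2 against hepatocytes between -0.290 and 0.0417 and on day 15 against day 2 between -0.0583 and 0.0862, Vwf on day 2 against hepatocytes between -0.0292 and 0.0573 and on day 15 against day 2 between -0.0238 and 0.0626, Tek on day 28 against hepatocytes between -0.0815 and 0.0992 and Emcn on day 28 against day 15 between -0.0432 and 0.00198. Without the filter Cdh5 was called lower than liver on day 2 (-0.21, adjusted p = 0.0268) and day 15 (-0.26, adjusted p = 0.00788) although no array detected it. Both arrays of a construct differed by a median of 0.13 in 30 member pairs and by at most 0.54 (Nrp1). The causes of these changes were not tested.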
